A study of Mus musculus with 12 samples.

Results

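The Myc, Max and Mxd network is a family of basic helix-loop-helix leucine zipper transcription factors, and 8 of its genes were followed here: Myc, Mycn, Max, Mxd1, Mxd3, Mxd4, Mxi1 and Mnt. They were chosen by symbol, without regard to their values, and all 8 were among the 20775 genes listed in each of 2 expression tables from mouse hearts with and without Med30. Med30 encodes a subunit of Mediator, the complex that passes signals from transcription factors to RNA polymerase II. Whole hearts of mid-gestation embryos (E10.5) were taken for RNA-seq, 3 samples from embryos with Tnnt-Cre and floxed Med30 on both alleles (Med30 f/f, cKO) and 3 samples from littermates that lacked Cre (Ctrl). Adult cardiomyocytes were isolated 4 weeks after tamoxifen, which both adult groups received, 3 samples from Med30 f/f mice with αMHC-MerCreMer (icKO) and 3 from Med30 f/f mice that lacked Cre (Ctrl).

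The labels give a C57BL/6 background, an age of 3 months for the adults, and the name wild type for the controls, which by the methods of the study carried the floxed allele. Tnnt-Cre and αMHC-MerCreMer act in cardiomyocytes, so other cells of the heart keep Med30 in both knockouts. Ctrl animals carried no Cre, and an effect of Cre itself cannot be told apart from the loss of Med30. Values are RPKM (read counts divided by gene length and library size), which set genes of different length on one scale within a library. The libraries rested on an estimated 13.7 to 20 M reads at E10.5 and 11.99 to 17.6 M reads at 4 weeks.

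Max is the partner of the whole family. Myc and N-Myc, the product of Mycn, bind DNA as dimers with Max at the E-box CACGTG and raise transcription of genes for ribosome assembly, nucleotide synthesis and the cell cycle. Mxd1, Mxd3, Mxd4, Mxi1 and Mnt also pair with Max at E-boxes, recruit Sin3 and histone deacetylases, and lower transcription. In the embryonic heart N-Myc is known for its role in the growth of the ventricular wall, while adult cardiomyocytes have mostly left the cell cycle.

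Promoter windows are shown for Mycn, called at E10.5, and for Mxd3, Mxd4 and Mxi1, whose knockout effect differed between stages on the deposited scale. They run from 250 bases before to 50 bases after the start site, 5′ to 3′ on the strand of the gene, and come from RefSeq on GRCm38.p6, which had windows for 7 of the 8 genes. No window was held for Myc. Motifs were searched on both strands, namely the E-box CACGTG (a palindrome) and the E2F motifs TTTGGCGC and TTTCCCGC, and matches are in capitals. The windows are chr12:12941787-12942086 on the minus strand for Mycn, chr13:55329682-55329981 on the minus strand for Mxd3, chr5:34187661-34187960 on the minus strand for Mxd4, and chr19:53310256-53310555 on the plus strand for Mxi1, the first of its 3 windows.
Mycn: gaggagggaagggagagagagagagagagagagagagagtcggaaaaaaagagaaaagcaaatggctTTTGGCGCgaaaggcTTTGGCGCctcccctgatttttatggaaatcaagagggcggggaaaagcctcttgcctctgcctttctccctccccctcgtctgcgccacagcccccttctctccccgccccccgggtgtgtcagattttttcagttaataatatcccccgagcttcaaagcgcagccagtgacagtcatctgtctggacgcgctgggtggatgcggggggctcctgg
Mxd3: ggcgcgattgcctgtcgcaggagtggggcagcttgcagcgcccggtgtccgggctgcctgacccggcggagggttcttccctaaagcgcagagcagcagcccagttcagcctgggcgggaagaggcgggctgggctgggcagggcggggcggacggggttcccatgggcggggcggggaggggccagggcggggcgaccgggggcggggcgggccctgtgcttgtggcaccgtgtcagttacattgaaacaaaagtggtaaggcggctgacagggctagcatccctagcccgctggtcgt
Mxd4: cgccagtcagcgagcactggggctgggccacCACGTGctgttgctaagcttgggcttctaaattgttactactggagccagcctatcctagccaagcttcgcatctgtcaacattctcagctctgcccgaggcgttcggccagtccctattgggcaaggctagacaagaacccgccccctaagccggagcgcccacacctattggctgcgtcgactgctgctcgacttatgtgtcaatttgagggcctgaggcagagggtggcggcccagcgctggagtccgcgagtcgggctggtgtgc
Mxi1: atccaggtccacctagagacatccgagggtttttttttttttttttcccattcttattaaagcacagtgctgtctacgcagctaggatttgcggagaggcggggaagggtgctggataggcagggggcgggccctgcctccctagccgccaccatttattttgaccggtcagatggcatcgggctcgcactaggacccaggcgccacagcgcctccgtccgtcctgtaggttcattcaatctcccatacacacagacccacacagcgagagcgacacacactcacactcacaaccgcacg
The Mycn window held TTTGGCGC at positions -183 and -168, counted from the start site, a motif found in 0.514% of the 32851 promoter windows. The Mxd4 window held CACGTG at -219, as 7.15% of all windows did, and CACGTG also stood at -3 in Max and at -123 in Mnt. The windows of Mxd3 and of Mxi1 held none of these letters, nor did that of Mxd1. TTTCCCGC, found in 1.07% of all windows, was in none of the 7 genes' windows. These matches describe the letters of the windows, not binding.

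Med30 itself was first compared between groups. At E10.5 it was at 10.6, 13.3 and 11.3 RPKM in Ctrl and at 1.38, 2.02 and 1.004 RPKM in cKO replicates 1 to 3. At 4 weeks it was at 7.66, 7.45 and 7.66 RPKM in Ctrl and at 3.81, 3.16 and 1.83 RPKM in icKO. Every knockout library was below every Ctrl library of its stage. Its log2 fold change was -2.96 ± 0.22 (SE, adjusted p = 0.000367, limma) at E10.5 and -1.40 ± 0.23 (adjusted p = 0.00040, limma) at 4 weeks, and -1.93 at 4 weeks after median-ratio scaling (adjusted p = 6.77e-05).

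The 6 cardiomyocyte markers (Tnnt2, Myh6, Actc1, Ryr2, Tnni3 and Nkx2-5) were detected in all 12 libraries. Their summed level was 3653 to 4725 RPKM in E10.5 Ctrl and 2850 to 3378 RPKM in cKO, and 15909 to 17199 RPKM in adult Ctrl and 5320 to 6683 RPKM in icKO. None of the 6 passed at E10.5. At 4 weeks 5 were lower (83.3%, against 18.1% of all genes) and Nkx2-5 was higher (16.7%, against 60.6%). After median-ratio scaling 5 were lower (against 33.5% of all genes) and 0 higher (against 34.7%). Since RPKM are shares of a library, a fall of abundant transcripts can raise the RPKM of others. The 20 most abundant genes held 24.8% to 25.4% of the summed RPKM in adult Ctrl and 11.5% to 13.1% in icKO, and over the 9517 genes tested the median difference was 0.57 on the log2 scale. With libraries scaled without these 20 genes the median was 0.33, and the source of the shift was not tested. Adult fold changes are also given after median-ratio scaling, which moved the median of 0.57 to 0.04. RPKM levels and their sums stay as deposited. At E10.5 the median of 10885 genes was -0.13, and -0.01 after scaling.

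**Figure D1:**
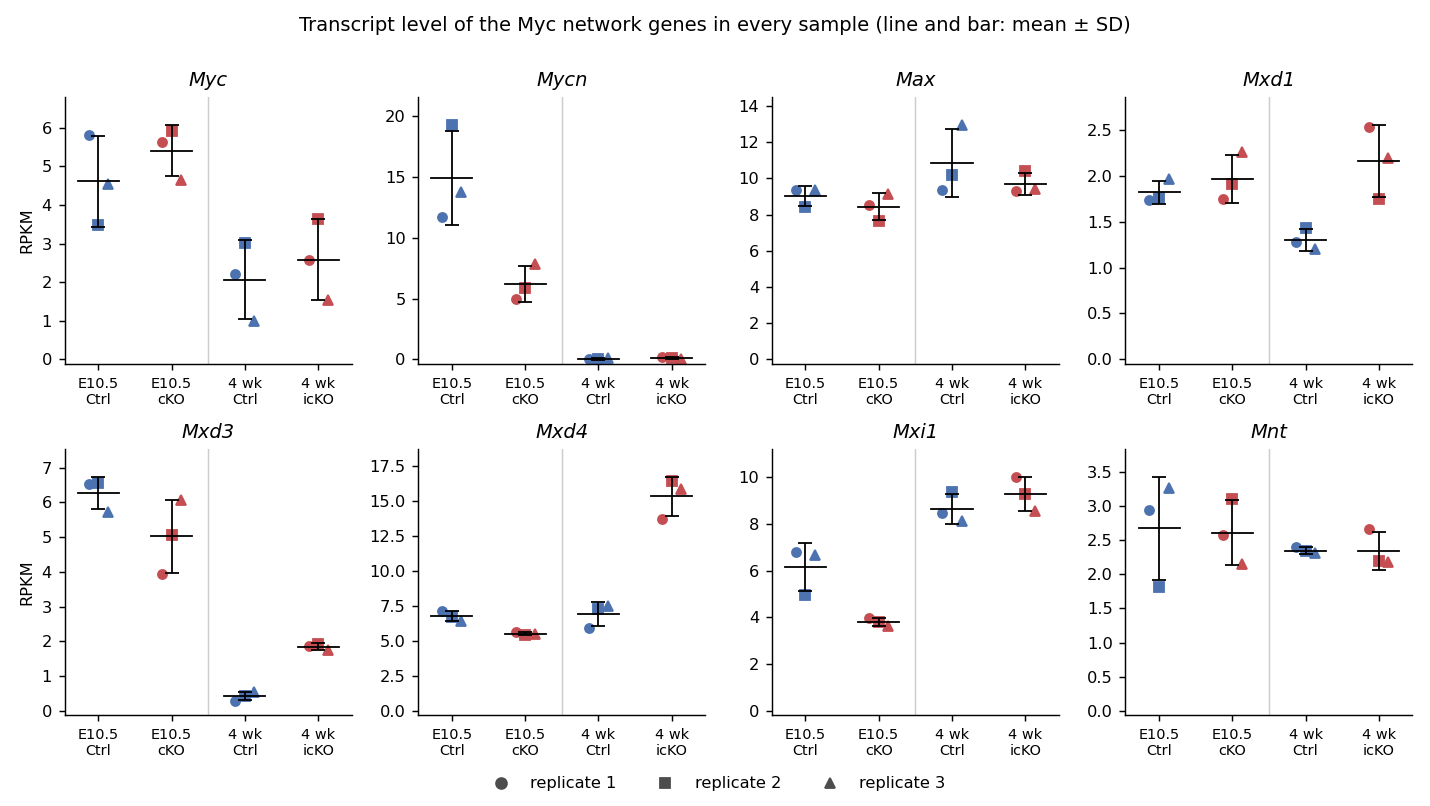
RPKM of the 8 genes (y axis, 1 scale per panel) in every library of the 4 groups (x axis), with Ctrl in blue, knockouts in red, and the line and bar at the mean ± SD of 3 replicates. Mycn in E10.5 cKO lies at 4.95 to 7.82, under the 11.7 to 19.3 of Ctrl, and Mxd4 in icKO lies at 13.7 to 16.4, above the 5.92 to 7.51 of adult Ctrl.

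In E10.5 hearts the gene with the largest difference of the 8 was Mycn. It fell from 14.9 ± 3.9 to 6.22 ± 1.47 RPKM (mean ± SD, n = 3), while Myc, Max, Mxd1 and Mnt did not pass the test and had overlapping groups. Mxi1 fell from 6.15 ± 1.02 to 3.79 ± 0.17 RPKM. No gene of the 8 passed as higher. A gene was counted as called where limma gave it an adjusted p under 0.05 and a change of more than 1 in log2(RPKM + 0.1), a scale that understates changes of low genes. By that rule 1 of the 8 was called lower, where 0.542% of all genes tested were called lower, and 0 were called higher, against 0.239%. At an adjusted p under 0.05 of any size, 2 of the 8 were lower, against 3.45% of all genes, and 0 higher, against 0.864%. Groups did not overlap in Mycn, Mxi1 and Mxd4, all 3 with cKO below Ctrl, as was the case for 22.6% of all genes. None of the 8 had cKO wholly above Ctrl, against 6.50% of all genes. In bulk samples, fewer cells of a type and less RNA per cell cannot be told apart.

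Mycn, at 12:12936093-12941914 on the minus strand of GRCm38, was the most abundant of the 8 genes in E10.5 Ctrl hearts. It was at 11.7, 19.3 and 13.8 RPKM in Ctrl and at 4.95, 5.90 and 7.82 RPKM in cKO. The highest cKO library was below the lowest Ctrl library. The log2 fold change was -1.24 ± 0.21 (SE, 95% interval -1.71 to -0.78, adjusted p = 0.0217, limma), and -1.13 after median-ratio scaling (adjusted p = 0.0273). The gap to the adjusted threshold was narrow. The adjusted p was 0.0846 without Ctrl replicate 3, 0.0623 without cKO replicate 1 and 0.0637 without cKO replicate 2, with log2 fold changes of -1.28, -1.09 and -1.22.

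Myc, at 15:61985391-61990374 on the plus strand, did not pass the test. It was at 5.82, 3.48 and 4.53 RPKM in Ctrl and at 5.64, 5.92 and 4.66 RPKM in cKO. The ranges overlapped, with Ctrl replicate 1 within those of cKO. Its log2 fold change was 0.25 ± 0.19 (SE, 95% interval -0.18 to 0.68, adjusted p = 0.461, limma), so a rise of up to 0.68 was not resolved. Myc and Mycn together came to 17.5, 22.8 and 18.3 RPKM in Ctrl and 10.6, 11.8 and 12.5 RPKM in cKO. Mycn gave 66.8%, 84.7% and 75.3% of that sum in Ctrl and 46.7%, 49.9% and 62.7% in cKO.

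Max, the shared partner, at 12:76937269-76962201 on the minus strand, was at 8.41 to 9.38 RPKM in Ctrl and 7.67 to 9.14 RPKM in cKO. The log2 fold change was -0.10 (95% interval -0.37 to 0.16, adjusted p = 0.640, limma), and 0.02 after scaling, so that its direction was not set.

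Among the repressive partners, Mxi1, at 19:53310518-53375810 on the plus strand, was at 6.80, 4.97 and 6.68 RPKM in Ctrl and at 3.97, 3.79 and 3.63 RPKM in cKO. All cKO libraries were below all Ctrl libraries, and the cKO values lay close together. In limma the log2 fold change was -0.67 ± 0.15 (SE, adjusted p = 0.0425, limma), and -0.55 after scaling (adjusted p = 0.0545). With each library left out in turn, it passed in 1 of 6 fits, the one without Ctrl replicate 2, and the adjusted p reached 0.152 without Ctrl replicate 3. Mxi1 overlaps Gm10197 and AC133451.2 on the other strand, and the strand setting of the counting is not stated.

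Mxd4, a repressor of quiescent and differentiated cells at 5:34173883-34187720 on the minus strand, was at 7.16, 6.68 and 6.43 RPKM in Ctrl and 5.62, 5.45 and 5.50 RPKM in cKO. The groups did not overlap, and limma gave a log2 fold change of -0.29 (95% interval -0.54 to -0.03) with an adjusted p = 0.177. Mxd3, a member known from dividing cells at 13:55325168-55329823 on the minus strand, was at 6.53, 6.55 and 5.73 RPKM in Ctrl and 3.95, 5.07 and 6.06 RPKM in cKO. Here cKO replicate 3 lay within the Ctrl range, and the log2 fold change was -0.33 (95% interval -0.70 to 0.04, adjusted p = 0.254, limma).

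Mxd1, induced when many cells differentiate and found at 6:86647042-86669161 on the minus strand, was low, at 1.74 to 1.96 RPKM in Ctrl and 1.74 to 2.26 RPKM in cKO (log2 fold change 0.10, adjusted p = 0.799, limma). Mnt, the most broadly expressed repressor of the family, at 11:74830920-74845725 on the plus strand, was at 1.82 to 3.26 RPKM in Ctrl and 2.15 to 3.11 RPKM in cKO. Its log2 fold change was -0.01 (adjusted p = 0.991, limma), with a 95% interval of -0.55 to 0.53, and 0.11 after scaling, so no direction is given for it.

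The order of levels differed between E10.5 groups. In Ctrl hearts Mycn stood first, above Max at 9.05 RPKM with no overlap, followed by Mxd4, Mxd3 and Mxi1 at means of 6.76, 6.27 and 6.15 RPKM, whose ranges overlapped. In cKO hearts Max was first with a mean of 8.44 RPKM, and the ranges of each neighbouring pair from Max through Mycn, Mxd4, Myc and Mxd3 to Mxi1 overlapped. Mnt and Mxd1 were lowest in both groups. The sum of Mxd1, Mxd3, Mxd4, Mxi1 and Mnt was 25.2, 21.8 and 24.1 RPKM in Ctrl and 17.9, 19.3 and 19.6 RPKM in cKO. The sum of Myc and Mycn over this sum was 0.697, 1.05 and 0.762 in Ctrl and 0.593, 0.612 and 0.637 in cKO, with no overlap. These sums give every gene the weight of its RNA level and say nothing of protein.

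**Figure D2:**
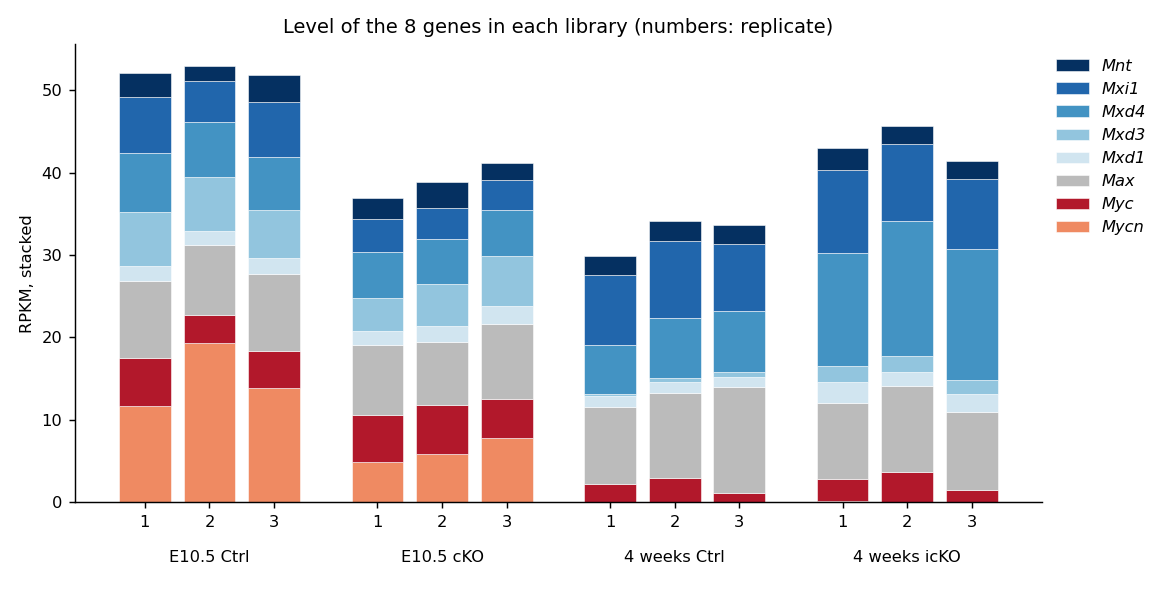
Stacked RPKM of the 8 genes (y axis) in each of the 12 libraries (x axis, grouped by stage and genotype), with Mycn and Myc at the base, Max in grey, and the repressive partners in blue. The Mycn block shrinks from 11.7 to 19.3 RPKM in E10.5 Ctrl to 4.95 to 7.82 RPKM in cKO and is near 0 in adult libraries, where the Mxd4 block is largest in icKO.

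Marker genes of other cell types were summed beside the E10.5 results. Of the 6 erythroid markers 0 passed, with summed levels of 173.7 to 619.9 RPKM in Ctrl and 294.1 to 1596 RPKM in cKO, and of the 7 endothelial and endocardial markers 0 passed, with sums of 130.8 to 182.8 and 156.0 to 165.5 RPKM. The 7 fibroblast markers, of which 0 passed, summed to 89.6 to 164.4 RPKM in Ctrl and 115.7 to 132.2 RPKM in cKO. The 6 macrophage markers summed to 8.51 to 11.2 RPKM in Ctrl and 4.87 to 6.76 RPKM in cKO, with Cd14 at 0 in all 6 libraries, and 1 of the 2 tested was lower. Of 4 tested epicardial markers 1 was lower (25.0%, against 3.45% of all genes), and 0 after scaling. The epicardial sums were 39.8 to 45.9 RPKM in Ctrl and 30.9 to 45.5 RPKM in cKO. Of 4 tested mural markers 0 passed, and the mural sums were 359.7 to 393.0 and 438.1 to 518.0 RPKM. The part of these cells in the level of Mycn was not tested.

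In adult cardiomyocytes the genes that moved were Mxd3, Mxd4 and Mxd1, and all 3 rose. Mxd4 rose from 6.91 ± 0.86 to 15.3 ± 1.4 RPKM (mean ± SD, n = 3), and Mxd3 from 0.425 ± 0.127 to 1.85 ± 0.10 RPKM. Myc, Max, Mxi1 and Mnt did not pass on the deposited scale. Mycn was not tested and Mxd3 entered the test through its icKO level, so the counts that follow are a description. Of the 7 genes tested, 2 were called higher, where 28.0% of all genes tested were called higher, and 0 were called lower, against 8.45%. At an adjusted p under 0.05 of any size, 3 of 7 were higher, against 60.6% of all genes, and 0 were lower, against 18.1%. The groups did not overlap in the same 3 genes, with icKO above, as in 62.0% of all genes, and icKO lay wholly below Ctrl in 0 of 7, against 18.9%. After median-ratio scaling 2 of 7 were higher, Mxd3 and Mxd4, and 3 were lower, Max, Mxi1 and Mnt, beside 34.7% higher and 33.5% lower among all genes.

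Mxd4 was at 5.92, 7.29 and 7.51 RPKM in Ctrl and at 13.7, 16.4 and 15.8 RPKM in icKO. Each icKO library was well above each Ctrl library. On the log2 scale the rise was 1.14 ± 0.12 (SE, 95% interval 0.87 to 1.41, adjusted p = 2.54e-05, limma). After median-ratio scaling it was 0.61 (adjusted p = 0.0021), past the adjusted threshold and under the limit of 1 in size. Gm42846 lies antisense to Mxd4 and shares its locus.

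Mxd3 was at 0.292, 0.438 and 0.545 RPKM in Ctrl and at 1.87, 1.93 and 1.74 RPKM in icKO, where 3 reads correspond to 0.129 to 0.189 RPKM. The icKO libraries agreed closely and all lay above Ctrl. This rise came to 1.92 ± 0.25 on the log2 scale (SE, 95% interval 1.36 to 2.48, adjusted p = 9.1e-05, limma), and 1.44 after scaling (adjusted p = 0.00081). Mxd3 passed the filter of a mean of 1 RPKM only through the icKO group, so it had to stand higher there. With no filter, when it is tested whatever its level, the adjusted p was 0.000172 (limma), and without icKO replicate 1 or 2 it fell under the filter. It overlaps Prelid1 on the other strand.

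Mxd1 was at 1.28, 1.43 and 1.197 RPKM in Ctrl and at 2.53, 1.75 and 2.20 RPKM in icKO. The groups did not overlap, with icKO replicate 2 nearest to Ctrl. The log2 fold change of 0.68 ± 0.18 (SE, adjusted p = 0.00758, limma) was close to the median of all genes, and it was 0.17 after scaling (adjusted p = 0.426).

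Mxi1 was at 8.47, 9.36 and 8.11 RPKM in Ctrl and at 10.02, 9.29 and 8.57 RPKM in icKO, with overlapping ranges (log2 fold change 0.10, 95% interval -0.13 to 0.33, adjusted p = 0.377, limma). Mnt was at 2.31 to 2.40 RPKM in Ctrl and 2.18 to 2.66 RPKM in icKO (log2 fold change -0.01, 95% interval -0.32 to 0.31, adjusted p = 0.963, limma). Max was at 9.36, 10.2 and 12.9 RPKM in Ctrl and at 9.32, 10.4 and 9.40 RPKM in icKO (log2 fold change -0.15, 95% interval -0.44 to 0.14, adjusted p = 0.318, limma). Relative to the other genes of the library these 3 were lower. After median-ratio scaling the log2 fold changes were -0.43 for Mxi1 (adjusted p = 0.00299, limma), -0.53 for Mnt (adjusted p = 0.00626) and -0.68 for Max (adjusted p = 0.00132).

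Myc was low and variable in adult cardiomyocytes, at 2.21, 3.00 and 0.981 RPKM in Ctrl and at 2.59, 3.63 and 1.53 RPKM in icKO. The spread within each group was wider than the distance between groups. The log2 fold change was 0.36 ± 0.41 (SE, 95% interval -0.56 to 1.28, adjusted p = 0.434, limma), and -0.16 after scaling, so neither a direction nor the absence of a change was resolved. Mycn was at 0, 0 and 0.091 RPKM in Ctrl and at 0.205, 0.069 and 0 RPKM in icKO. The level of 3 reads was 0.0639 to 0.0936 RPKM over the 6 libraries, and the 3 values above 0 exceeded that of their own library. Mycn was not tested at this stage and no fold is given.

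In adult Ctrl, Max stood first at 10.8 RPKM with a range that overlapped that of Mxi1 at 8.65, and Mxd4 followed at 6.91 with no overlap. In icKO, Mxd4 stood first at 15.3 RPKM with no overlap to Max at 9.70, whose range overlapped that of Mxi1 at 9.29. The 5 repressive partners summed to 18.4, 20.9 and 19.7 RPKM in Ctrl and to 30.8, 31.6 and 30.5 RPKM in icKO. These sums are on the deposited scale, where the median difference of all genes was 0.57 on the log2 scale. After scaling Mxd3 and Mxd4 were higher, Mxi1 and Mnt were lower, and Mxd1 did not pass. The sum of Myc and Mycn over that of the 5 repressive partners was 0.120, 0.144 and 0.0545 in Ctrl and 0.0906, 0.117 and 0.0501 in icKO, and these ranges overlapped. The tables of both stages were normalized separately, so levels across them are given side by side with no test. In Ctrl, Mycn was at 14.9 RPKM in E10.5 hearts and 0.030 RPKM in adult cardiomyocytes, Mxd3 at 6.27 and 0.425 RPKM, and Mxd4 at 6.76 and 6.91 RPKM.

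Markers of some non-myocytes were also higher in icKO on the deposited scale. In 7 of 7 fibroblast markers every icKO library was above every Ctrl library, as in 62.0% of all genes tested. Of 5 tested 5 rose (100%, against 60.6% of all genes), and 4 were higher after scaling (80.0%, against 34.7%). Col1a1, Col1a2 and Postn were under 1 RPKM in every Ctrl library and passed the filter through the icKO group. They had to stand higher, so these counts are a description. The summed level of the 7 was 4.81 to 8.16 RPKM in Ctrl and 59.4 to 85.6 RPKM in icKO, with Tcf21 at 0 in 2 Ctrl libraries. Postn, a matrix protein of activated fibroblasts, was at 0.249 to 0.504 RPKM in Ctrl and 22.04 to 26.2 RPKM in icKO. The 7 endothelial and endocardial markers summed to 10.7 to 21.5 RPKM in Ctrl and 24.1 to 34.0 RPKM in icKO. Of 6 tested 3 rose, a smaller share than the 60.6% of all genes, and 1 was higher after scaling (16.7%, against 34.7%). The 6 macrophage markers summed to 1.82 to 3.09 RPKM in Ctrl and 3.95 to 7.14 RPKM in icKO, with Ptprc at 0 in 1 Ctrl library. Sums overlapped for the 6 mural markers (47.0 to 72.3 and 46.7 to 79.1 RPKM), the 5 epicardial markers (0.991 to 2.71 and 1.70 to 3.68 RPKM) and the 6 erythroid markers (1.05 to 7.56 and 4.14 to 7.99 RPKM). Acta2 was the largest part of the mural sum, at 31.9 to 63.5 RPKM in Ctrl and 27.6 to 42.7 RPKM in icKO. Of 4 tested mural markers 2 rose, beside 60.6% of all genes, and after scaling 1 was higher and 1 lower. Cspg4 rose from 1.52 to 7.42 RPKM (log2 fold change 2.20, adjusted p = 2.01e-06, limma, and 1.67 after scaling). Pdgfrb was at 0.963 and 2.44 RPKM (1.26, adjusted p = 0.00978, limma). It passed the filter only through the icKO group, so it had to stand higher. The part of these cells in the level of the Mxd genes was not tested.

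**Figure D3:**
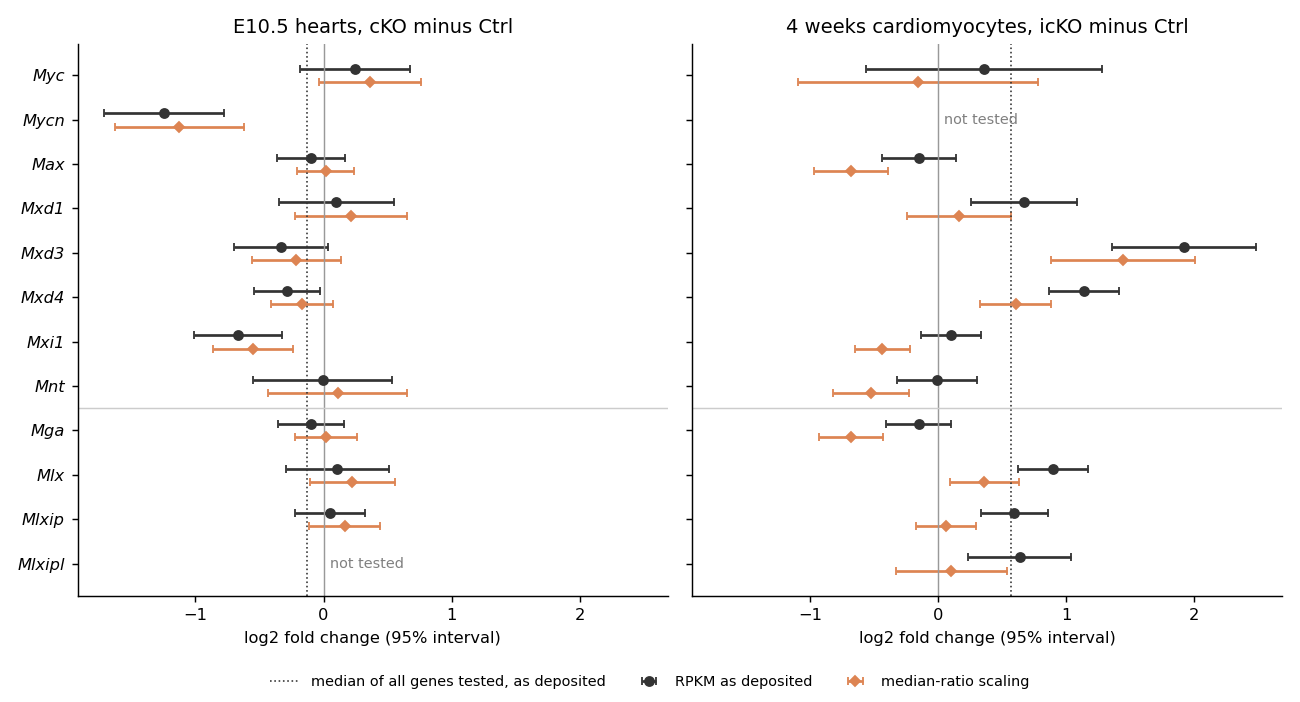
Log2 fold change of knockout against Ctrl with its 95% interval (x axis) for the 8 genes and, under the line, other genes of the wider network (y axis), at E10.5 (left) and 4 weeks (right), with deposited RPKM in black, median-ratio scaling in orange, and the median of all genes dotted. Mycn lies at -1.24 at E10.5, and at 4 weeks Mxd3 and Mxd4 lie at 1.92 and 1.14 while scaling moves Max to -0.68.

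Whether the knockout effect differed between stages was tested as a contrast over all 12 samples and the 8909 genes tested in both tables, of which 68.7% passed at an adjusted p under 0.05. The effect on Mxd4 was 1.43 higher at 4 weeks than at E10.5 on the log2 scale (95% interval 1.08 to 1.77, adjusted p = 5.57e-06, limma), and that on Mxi1 0.77 higher (0.38 to 1.16, adjusted p = 0.00195). That on Mxd3 was 2.25 higher (1.64 to 2.86), with an adjusted p = 4.04e-05 in a fit with no RPKM filter, added after seeing the data because its adult icKO level decided its place in the filtered fit. After median-ratio scaling the differences were 1.66 for Mxd3, 0.77 for Mxd4 (adjusted p = 0.00118, limma) and 0.12 for Mxi1 (adjusted p = 0.555), and Max then passed at -0.70 (adjusted p = 0.00277, limma). On the deposited scale Mxd1 differed by 0.57 (adjusted p = 0.0578, limma), and Myc, Max and Mnt by 0.11, -0.04 and -0.00 (adjusted p of 0.851, 0.832 and 0.998). Stage, tissue and Cre line changed together, and which of them goes with the difference cannot be told apart.

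The wider network joins Max to Mga, a large repressor, and Mlx to the glucose-sensing factors Mlxip (MondoA) and Mlxipl (ChREBP). At E10.5 Mga, Mlx and Mlxip were tested and 0 of 3 passed, with log2 fold changes of -0.10, 0.11 and 0.05 (adjusted p of 0.642, 0.758 and 0.851, limma), and that of Mga was 0.02 after scaling. Mlxipl was at 0.019 to 0.190 RPKM in Ctrl and 0 to 0.103 RPKM in cKO, and Mycl at 0.056 to 0.209 RPKM in Ctrl and 0.034 to 0.483 RPKM in cKO. In adult cardiomyocytes 3 of 4 rose on the deposited scale (75.0%, against 60.6% of all genes), which are the Mlx branch. Mlx was at 5.71, 4.42 and 4.62 RPKM in Ctrl and 9.59, 9.40 and 8.58 RPKM in icKO (log2 fold change 0.90, adjusted p = 0.000119, limma). Mlxip was at 7.01, 8.12 and 7.08 RPKM in Ctrl and 12.4, 11.5 and 9.91 RPKM in icKO (log2 fold change 0.60, adjusted p = 0.00105, limma). Mlxipl was at 7.73, 8.68 and 6.27 RPKM in Ctrl and 9.44, 11.5 and 14.9 RPKM in icKO (log2 fold change 0.64, adjusted p = 0.00855, limma). In all 3 genes every icKO library was above every Ctrl library, as in 62.0% of all genes tested. After scaling Mlx kept a log2 fold change of 0.36 (adjusted p = 0.0228, limma), and Mlxip and Mlxipl were at 0.06 and 0.11 (adjusted p of 0.601 and 0.638). Mga was at -0.15 (adjusted p = 0.237, limma) and at -0.68 after scaling (adjusted p = 0.000572). Mycl was at 0 in 4 of 6 adult libraries and at most 0.036 RPKM.

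The MondoA targets Txnip, an inhibitor of glucose uptake, and Arrdc4, its relative, were both tested. At E10.5 Arrdc4 fell from 3.51 to 2.02 RPKM (log2 fold change -0.77, adjusted p = 0.0401, limma, and -0.66 with adjusted p = 0.0552 after scaling), and Txnip was at 30.4 and 20.2 RPKM (-0.60, adjusted p = 0.0590). In adult cardiomyocytes Txnip fell from 313.8 ± 52.6 to 38.5 ± 3.6 RPKM (mean ± SD, n = 3, log2 fold change -3.01, adjusted p = 2.68e-07, limma, and -3.55 after scaling). Arrdc4 was at 0.956 ± 0.386 and 1.30 ± 0.52 RPKM (0.40, adjusted p = 0.318, limma, and -0.10 after scaling).

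Genes that Myc and N-Myc are known to activate were described by list at E10.5, beside the median of all genes of -0.13 and the 3.45% of all genes that were lower at an adjusted p under 0.05. The median over the 24 cell cycle genes was -0.32. All 24 values were below 0 on the deposited scale and 6 passed as lower, namely Ccnb1, Ccne1, Cdt1, Cks2, Mcm6 and Mcm7 (25.0% of the list), which was 3 after scaling. This count was 0 without Ctrl replicate 1, Ctrl replicate 3 or cKO replicate 2, 1 without Ctrl replicate 2 or cKO replicate 1 and 5 without cKO replicate 3, and 0 with no RPKM filter or with eBayes without trend. Cks2, a small partner of cyclin-dependent kinases, was called, at 11.1 ± 1.4 RPKM in Ctrl and 5.21 ± 1.57 RPKM in cKO (log2 fold change -1.11, adjusted p = 0.0236, limma). The nucleotide and polyamine list of 24 had a median of -0.35 with 6 lower, Adsl, Atic, Mthfd2, Paics, Shmt1 and Srm (25.0%), and 5 after scaling. It was 0 without Ctrl replicate 1, Ctrl replicate 3 or cKO replicate 2, 1 without Ctrl replicate 2, 2 without cKO replicate 1 and 6 without cKO replicate 3. Paics, an enzyme of purine synthesis, fell from 77.2 to 53.5 RPKM (adjusted p = 0.0416, limma), and Srm, the spermidine synthase, from 22.5 to 14.5 RPKM (adjusted p = 0.0422). No gene of either list was higher. After scaling the medians were -0.20 for the cell cycle list and -0.23 for the nucleotide and polyamine list, beside -0.01 for all genes.

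The ribosome biogenesis list of 30 had a median of -0.36, with 29 values below 0 and 25 below the median of all genes. A single gene passed, Npm1, the nucleolar chaperone nucleophosmin, which fell from 269 to 151 RPKM (log2 fold change -0.82, adjusted p = 0.0416, limma). The count of 1 in 30 (3.33%) was near the share of all genes, and it was 7 with a mean RPKM over 5, 4 without cKO replicate 3, and 0 with any other library left out and with no RPKM filter. Of 13 tested genes that Myc is known to repress, 2 were higher (15.4%, against 0.864% of all genes) and 0 lower (against 3.45%), with a median of 0.06. They were Cdkn1a, a cyclin-dependent kinase inhibitor that p53 also induces, at 4.12 ± 0.50 RPKM in Ctrl and 26.9 ± 13.8 RPKM in cKO (log2 fold change 2.54, adjusted p = 0.00942, limma), and Gadd45b, at 2.97 and 5.23 RPKM (0.83, adjusted p = 0.0457). With Ctrl replicate 1, 2 or 3 or cKO replicate 1 or 2 left out, 1 gene of this list passed.

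At 4 weeks the same lists stood beside a median of all genes of 0.57, with 60.6% of all genes higher and 18.1% lower at an adjusted p under 0.05, and 34.7% and 33.5% after scaling. Of the 24 cell cycle genes 10 passed the filter, Ccna2 among them through the icKO group, so their counts are a description. They were 8 higher and 0 lower (median 0.81), and 5 higher and 1 lower after scaling. Pcna, the sliding clamp of DNA replication, rose from 5.91 ± 0.99 to 34.6 ± 8.5 RPKM (log2 fold change 2.52, adjusted p = 3.3e-06, limma, and 1.98 after scaling), and Ccna2, cyclin A2, was at 0.909 and 2.40 RPKM (1.28, adjusted p = 0.0007, and 0.78 after scaling, under the limit of 1). Of 30 ribosome biogenesis genes 24 were higher (80.0%) and 2 lower (6.67%, median 0.90), and 17 (56.7%) and 4 (13.3%) after scaling. Rrp12 and Bop1, factors of ribosomal subunit assembly, rose from 4.46 to 23.7 RPKM and from 5.23 to 26.1 RPKM (log2 fold changes 2.38 and 2.29, adjusted p of 1.08e-06 and 3.3e-07, limma, and 1.85 and 1.75 after scaling).

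Of 22 tested nucleotide and polyamine genes 13 were higher (59.1%, near the share of all genes) and 6 lower (27.3%, median 0.37), which turned to 6 higher (27.3%) and 10 lower (45.5%) after scaling (median -0.17). Cad, the enzyme that starts pyrimidine synthesis, fell from 1.87 to 0.468 RPKM (log2 fold change -1.80, adjusted p = 3.51e-05, limma, and -2.28 after scaling), and Pfas, of purine synthesis, from 2.67 to 0.880 RPKM (-1.50, adjusted p = 3.66e-05, and -2.0 after scaling). Ctps, which makes CTP, rose from 12.3 to 40.5 RPKM (1.71, adjusted p = 4.08e-07, limma, and 1.17 after scaling). Mthfd2, a mitochondrial folate enzyme, rose from 0.225 to 1.96 RPKM (2.64, adjusted p = 2.64e-05, limma, and 2.19 after scaling). Mthfd2 passed the filter only through the icKO group, so it had to stand higher. Cad, Pfas and Prps2 had icKO means under 1 RPKM and passed the filter through Ctrl, so they had to stand lower. Their part in the count of lower genes is a description. With no RPKM filter that count was 6 as well.

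Of 13 tested genes repressed by Myc 7 were higher (53.8%) and 2 lower (15.4%, median 0.38), and 1 higher (7.69%) and 4 lower (30.8%) after scaling (median -0.16). Cdkn1a rose from 8.57 ± 2.52 to 165.4 ± 19.0 RPKM (log2 fold change 4.30, adjusted p = 4.27e-07, limma, and 3.76 after scaling) and was the one that stayed higher after scaling. Cdkn1c, a related inhibitor, was at 0.827 and 2.85 RPKM (1.44, adjusted p = 0.0157, limma, and 0.94 with adjusted p = 0.0892 after scaling). Cdkn1c passed the filter only through the icKO group, so it had to stand higher. Btg2, an antiproliferative factor, fell from 61.7 to 24.7 RPKM (-1.31, adjusted p = 9.81e-06, limma, and -1.85 after scaling).

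The partners through which the family acts were listed as well. At E10.5, of 23 Myc cofactors and regulators of its stability 1 was lower and 0 higher (Ruvbl1, 8.16 to 5.64 RPKM, adjusted p = 0.0454, limma), and of 13 corepressors 1 was lower and 0 higher (Sap30, 13.8 to 8.08 RPKM, adjusted p = 0.0217). Their medians of -0.19 and -0.21 were near that of all genes, and neither gene passed when Ctrl replicate 1, 2 or 3 or cKO replicate 1 or 2 was left out. At 4 weeks 16 of 21 cofactors were higher (76.2%) and 4 lower (19.0%, median 0.61), and 9 (42.9%) and 4 (19.0%) after scaling. Cdk9, the kinase of P-TEFb, which releases paused polymerase, rose from 1.89 to 6.07 RPKM (log2 fold change 1.62, adjusted p = 1.16e-05, limma, and 1.10 after scaling). Bin1, which binds Myc and also shapes the T-tubules of muscle, rose from 0.112 to 2.29 RPKM (3.54, adjusted p = 1.28e-05, limma, and 3.14 after scaling). Bin1 passed the filter only through the icKO group, so it had to stand higher.

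Of the 13 corepressors 11 were higher (84.6%) and 1, Hdac2, lower (7.69%) at 4 weeks (median 0.80), and 6 (46.2%) and 3 (23.1%) after scaling. Sin3b, a scaffold that Mxd and Mnt proteins recruit, rose from 14.4 ± 1.2 to 57.0 ± 4.1 RPKM (log2 fold change 1.98, adjusted p = 4.08e-07, limma, and 1.44 after scaling). Sap30, of the same complex, rose from 4.71 to 17.7 RPKM (1.90, adjusted p = 4.13e-06, limma, and 1.36 after scaling), where it had fallen at E10.5. Bin1, Ing2 (0.936 and 1.69 RPKM), Mthfd2, Ccna2 and Cdkn1c had Ctrl means under 1 RPKM and passed the filter through the icKO group. They had to stand higher, so their part in the counts of higher genes is a description.

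**Figure D4:**
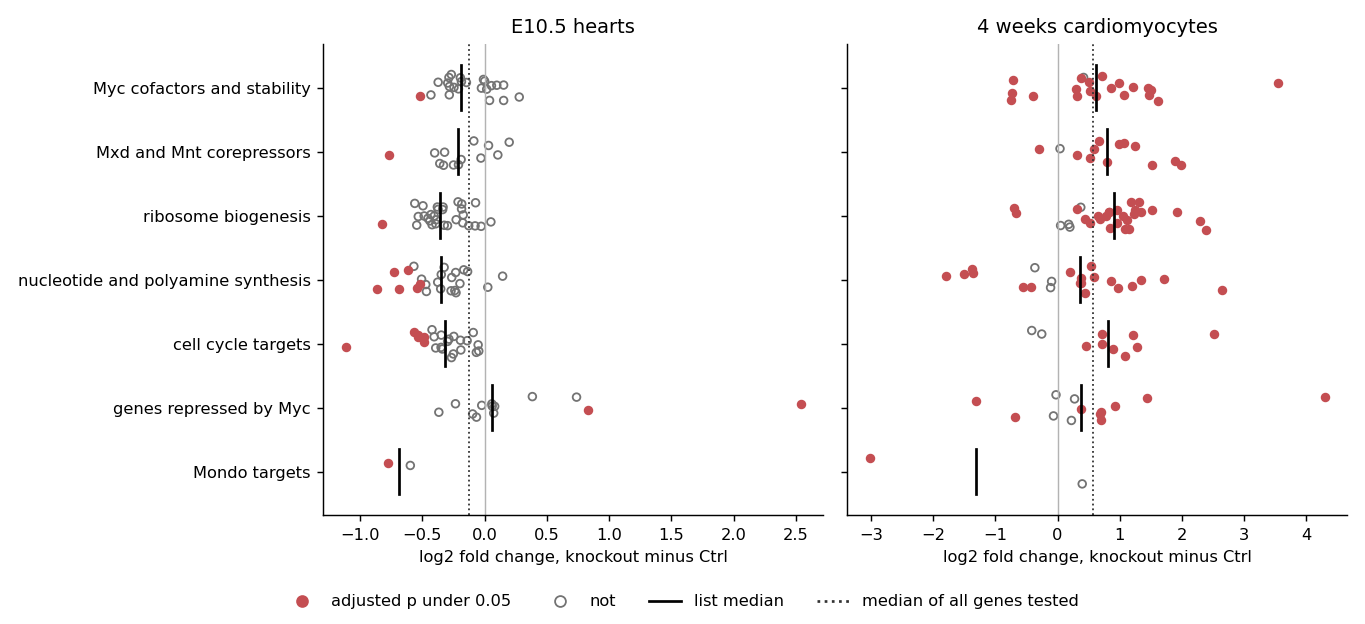
Log2 fold change of knockout against Ctrl on deposited RPKM (x axis) for each tested gene of 7 lists (y axis) at E10.5 (left) and 4 weeks (right), with filled points at an adjusted p under 0.05, the list median as a bar, and the median of all genes dotted. At E10.5 the 24 cell cycle genes all lie below 0, and at 4 weeks the lists spread to both sides, from Txnip at -3.01 to Cdkn1a at 4.30.

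Across the promoter windows of these lists, CACGTG stood in 6 of 25 ribosome biogenesis genes with a window (24.0%), 5 of 20 nucleotide and polyamine genes (25.0%) and 2 of 19 cell cycle genes (10.53%), beside 8.09% of all genes with a window. It also stood in 4 of 12 genes repressed by Myc (33.3%), 1 of 20 cofactors (5.0%) and 1 of 11 corepressors (9.09%). TTTGGCGC, the motif found in the Mycn window, stood in 6 of 19 cell cycle genes (31.6%), 1 of 25 ribosome biogenesis genes (4.0%) and in none of the nucleotide and polyamine genes, genes repressed by Myc, cofactors and corepressors, beside 0.585% of all genes.

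Over the 12 samples, the genes whose log2 levels were most like Mycn among 11493 compared were Flrt3 (Pearson r = 0.995), Bcat1 (r = 0.994) and Fignl1 (r = 0.994). For Myc they were Rasgef1b (r = 0.925), Wdr5b (r = 0.915) and Emp3 (r = 0.913). These values describe the libraries, since the 12 points share 2 stages and the step between stages is the main difference among them.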

How the data were processed

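RNA-seq was analysed in 12 samples, 3 in each of 4 groups given by the labels. The authors mapped reads to GRCm38, and their processing notes name cutadapt 2.6, STAR 2.5.3a, HOMER 4.11.1 and DESeq2 1.12.4. They deposited 1 table per stage with RPKM per sample and no filter. The deposited tables also hold the authors' mean RPKM, a log2 fold change and an FDR (an adjusted p-value) from their own comparison, none of which was used. The E10.5 knockout columns are headed icKO, and were matched by stage and replicate to the cKO samples. The reads that RPKM were scaled to and the strand setting are not given in the sources used here.

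Each stage was fitted alone with limma 3.58.1 (lmFit, eBayes with trend, R 4.3.3) on log2(RPKM + 0.1). Genes entered if their RPKM averaged above 1 in the 6 samples, with Benjamini-Hochberg adjustment over all genes tested. Called genes passed an adjusted p of 0.05 and changed by more than 1 on the log2 scale. By comparison, an exact permutation test of 3 against 3 cannot go below a two-sided p of 0.1. Nothing in the labels says that samples came from separate litters or animals, so p-values measure the spread between these samples. The contrast between stages was a fit over all 12 samples. The fits were tested on simulated data.

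Depth was estimated as the number of reads at which low values (up to 12 reads, 15087 genes with 1 transcript length) lay nearest to whole reads, and 62.6% to 70.8% of them lay within 0.1 of one. The level of 3 reads covers counting error only. Tables were read with Python 3.11.15 and pandas 2.3.3, and annotated with GENCODE M21. Median-ratio scaling divides each library by the median ratio of its genes to their geometric mean.

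The genes named are the 8 network genes, Med30, the other network genes, and from each list the 2 called genes with the largest change in each direction per stage. For Myc and Mycn the 3 genes with the highest correlation were added. Genes of a list that passed the adjusted threshold without being called were named after their values were seen. So were Prps2 and the markers Postn, Col1a1, Col1a2, Nkx2-5, Tcf21, Cd14, Ptprc, Acta2, Cspg4 and Pdgfrb. The network genes and the lists were chosen with earlier results of these data known. Alternatives were pseudocounts of 1 and 0.01, other RPKM filters, 2 further scalings, eBayes without trend, the replicate block, and the omission of each library.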

Additional observations from a re-analysis of the deposited data

Results flagged for a closer look

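For 3 genes the effect of Med30 loss differed between E10.5 hearts and adult cardiomyocytes when the difference itself was tested in limma over all 12 samples. Among all 8909 genes in that fit 68.7% passed at an adjusted p under 0.05. The difference, 4 weeks minus E10.5 on the log2 scale, was 2.25 for Mxd3 (-0.33 at E10.5 and 1.92 at 4 weeks), 1.43 for Mxd4 (-0.29 and 1.14, adjusted p = 5.57e-06) and 0.77 for Mxi1 (-0.67 and 0.10, adjusted p = 0.00195). Mxd3 passed the filter at 4 weeks only through its icKO level, and with no filter its adjusted p was 4.04e-05 (limma). All 3 adult icKO libraries of Mxd3 and of Mxd4 lay above all adult Ctrl libraries, and all 3 cKO libraries of Mxd4 and of Mxi1 lay below all E10.5 Ctrl libraries. After median-ratio scaling the differences were 1.66, 0.77 and 0.12, and that of Mxi1 no longer passed (adjusted p = 0.555, limma).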

How the results depend on the processing

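At E10.5, Mycn was the 1 gene called, and 0 were called with eBayes without trend (adjusted p = 0.0529, limma) and 0 to 1 when a library was left out. Over the other 9 alternatives the adjusted p of Mycn was 0.00804 to 0.0529 and it fell in each. The 2 genes with an adjusted p under 0.05 became 1 with no RPKM filter, a mean RPKM over 5, median-ratio scaling, quantile normalization and scaling without the 20 most abundant genes (added after seeing the data), 0 with eBayes without trend, and 0 to 2 when a library was left out. At 4 weeks the 2 called genes became 1 with a mean RPKM over 5, where Mxd3 was not tested, with each of these 3 scalings, and 1 to 2 when a library was left out. The 3 genes past the adjusted threshold became 1 with a mean RPKM over 5, and 5 with median-ratio scaling and with quantile normalization. Called genes over the whole table were 804 lower and 2668 higher at 4 weeks, and 1476 and 1106 after median-ratio scaling, 1341 and 1213 after quantile normalization, and 1055 and 1851 without the 20 most abundant genes, and at E10.5 59 and 26 became 41 and 35 after median-ratio scaling.

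Values near 0 changed sign. At E10.5, median-ratio scaling, quantile normalization and scaling without the 20 most abundant genes gave log2 fold changes of 0.017, 0.0085 and 0.071 for Max, 0.11, 0.11 and 0.16 for Mnt and 0.020, 0.017 and 0.074 for Mga, and leaving out a library gave -0.25 to 0.15 for Mnt and -0.048 to 0.25 for Mlx. At 4 weeks the scalings gave -0.43, -0.47 and -0.14 for Mxi1, and median-ratio and quantile gave -0.16 and -0.073 for Myc, and leaving out a library gave -0.077 to 0.68 for Myc and -0.098 to 0.041 for Mnt. The difference between stages was -0.52 for Myc and -0.048 for Mxd1 with median-ratio scaling, 0.0061 for Mnt with a pseudocount of 1, and -0.32 to 0.44 for Myc, -0.14 to 0.089 for Max and -0.16 to 0.24 for Mnt when a library was left out. Apart from the scalings, the cause was not tested. Of 459 recomputed values of single genes, 388 kept their direction and side of the threshold, 37 changed sign, 23 lost and 11 gained the threshold.

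The count of genes whose effect differed between stages was 3, 2 to 4 when a library was left out, and 4 with no RPKM filter (added after seeing the data), where Mycn, near 0 in adults, also entered. With median-ratio scaling it was 3 with Max in place of Mxi1. Counts of lower genes at E10.5 in the lists ranged from 0 to 5 for the cell cycle, 0 to 6 for nucleotides and polyamines and 0 to 4 for ribosome biogenesis when a library was left out.

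Whether the replicate numbers pair the samples was not settled. Deviations of same-numbered samples correlated at 0.012, 0.101 and -0.070 at E10.5 and at 0.153, 0.043 and 0.045 at 4 weeks. With the replicate block, 1 gene was called and 2 passed at E10.5, 2 were called and 3 passed at 4 weeks, and 3 differed between stages. The block changed the count of lower cell cycle genes at E10.5 from 6 to 2, and that of lower Myc cofactors and of lower Mondo targets from 1 to 0 each.

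Depth limits Mycn and Mycl in adult cardiomyocytes, where values rest on a few reads.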
